A study of Danio rerio with 9 samples.

Results

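Vitellogenins are the precursors of egg yolk protein. In egg-laying vertebrates they are made mainly by the liver of females under the control of estradiol and its receptor, secreted into the blood, and taken up by growing oocytes, where cathepsins cut them into yolk proteins. Zebrafish carry several vitellogenin genes, most of them in a cluster on chromosome 22, whose coding sequences are close to identical over long stretches. Males and juveniles exposed to estrogens also make the protein, for which reason it is widely used as a marker of estrogen exposure.

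The family was taken from the arrays by annotation alone: every gene probe whose symbol began with vtg or whose description held the word vitellogenin. The rule found 56 probes of 21495, under 51 different names of 18561. No symbol began with vtg, because the array design uses older names. The gene now called vtg1 is written vg1 in the files and had 5 probes, vtg3 is written vg3 and had 1, and vtg7 was reached by 1 probe through an older EST name that RefSeq lists for it. Of the others, 21 were described as a fragment of vitellogenin 1 (protein entry Q8JH37), 13 as vitellogenin 1 (Q90YN8) and 1 as vitellogenin 3, and most of the rest were expressed sequence tags (ESTs) described as similar to a vitellogenin. On the danRer2 build that the files use, 44 of the 56 lay on chromosome 22 and 2 on chromosome 11, and 5 were unplaced. The genes resemble each other closely and several probes share assembled contigs, so a probe cannot be assigned to 1 gene of the family with certainty, and the probes are not independent measurements.

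The arrays measured RNA from the inner ears of adult zebrafish, with saccule, lagena, utricle and semicircular canals taken whole. Control fish had no sound exposure. Day 2 and Day 4 fish were exposed to a loud low-frequency tone and recovered for 2 or 4 days. Each group was 1 pool of RNA from 18 to 20 fish, hybridised to 3 arrays, so the spread between arrays is technical, and P-values measure that spread and not the spread between fish. Fish were assigned to the groups without regard to sex. The share of females in each pool was not given in the sources used here, and its part in the values below was not tested. By the scan times in the file headers the 9 arrays fell into 3 sets, called slides here. The methods describe another layout, with an array of each group on every plate, which the scan times do not show. The slide with 1 Control, 1 Day 2 and 2 Day 4 arrays had a local background of 129 to 153.5 intensity units against 63.5 to 74 on the others. Between 37.5% and 55.3% of all probes were well above background per array, the lowest share being on the second Day 4 array.

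Values below are log2 signals with the median of each array set to 0, so a value of 1 is a signal 2-fold above the array's median probe. They compare groups for 1 probe and not one probe with another. A probe was counted as measured on an array where the image software flagged each of its 2 spots as well above background.

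Vitellogenin signal was found in the control ears, in fewer probes on Day 2 and in almost none on Day 4. In Control, 12 of the 56 probes were measured on all 3 arrays, 12 more on 1 or 2 arrays, and 32 on none. On Day 2, 9 were measured on all 3 arrays and 7 on 1 or 2. On Day 4, 0 were measured on all 3 arrays and 6 on 1 or 2. Per array the number was 24, 21 and 12 in Control, 9, 16 and 9 on Day 2, and 6, 0 and 2 on Day 4. Both the lowest Control count and the Day 4 counts of 0 and 2 came from the slide with the higher background, on which the faintest measured probe of any gene also sat higher. On the first slide, where the background was low, the number was 24 for Control, 9 for Day 2 and 6 for Day 4. The faintest measured signal of any probe still differed there, at -1.08, -0.03 and -0.66, so these counts do not share a detection limit. On the second slide, also with a low background, the number was 21 for Control and 16 for Day 2. There the faintest measured signal was -0.82 for Control and -1.21 for Day 2. Over all 21495 probes, the share measured on all 3 arrays was 45.4% in Control, 45.8% on Day 2 and 37.4% on Day 4, against 21.4%, 16.1% and 0% of the vitellogenin probes.

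**Figure D1:**
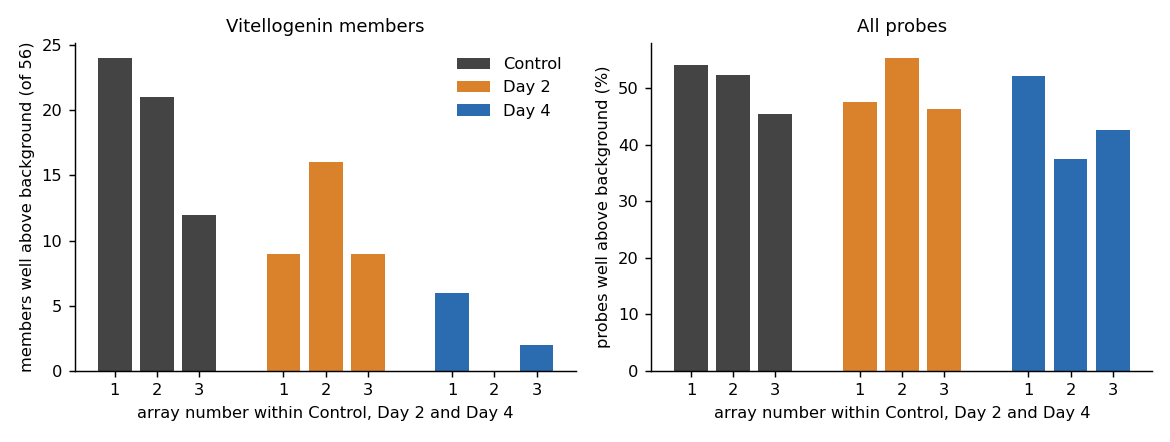
Vitellogenin probes (left, number of 56) and all probes (right, percent of 21495) well above background on each of the 9 arrays, in grey for Control, orange for Day 2 and blue for Day 4. The vitellogenin bars stand at 12 to 24 in Control, 9 to 16 on Day 2 and 0 to 6 on Day 4, while the bars of all probes stand between 37.5% and 55.3%.

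The brightest vitellogenin probe in the control ears was A_15_P121345 (chromosome 22, 24923064 to 24923207), a vitellogenin 1 fragment. It read 3.16, 2.98 and 3.15 on the Control arrays, 2.03, 1.92 and 1.97 on the Day 2 arrays, and 0.36, 0.32 and -0.01 on the Day 4 arrays. Every Day 2 array was below every Control array, every Day 4 array was below every Day 2 array, and only the first Day 4 array was still well above background. The probe was significantly regulated in all 3 comparisons. It fell by 1.12 on the log2 scale in Day 2:Control (SE 0.14, adjusted P = 0.0371, limma), which is 2.18-fold. In Day 4:Control the fitted change was -2.90 (SE 0.15, adjusted P = 0.00388). Where a probe is not measured on all 3 arrays of the dimmer group, the fold has only a lower bound, set against the faintest measured signal of any probe on those arrays or the probe's own signal if higher. By that bound the Day 4 signal of A_15_P121345 was lower by at least 4.70-fold against Control and by at least 2.16-fold against Day 2, where the adjusted P was 0.0404.

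The brightest probe described as vitellogenin 1, and not as a fragment of it, was A_15_P117147 (chromosome 22, 24628385 to 24629771). It read 2.78, 2.75 and 2.78 in Control, 1.60, 1.25 and 1.45 on Day 2, and -0.28, -0.42 and -1.02 on Day 4. The 3 groups did not overlap. In Day 2:Control its fitted change of -1.33 (SE 0.20) did not pass the test (adjusted P = 0.0651). It was significantly lower in Day 4:Control (adjusted P = 0.00692), by at least 4.34-fold.

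Probes written vg1 in the files are called vtg1 probes here, by that name and not by a known single gene. The brightest was A_15_P106847 (chromosome 22, 24828431 to 24828491). It read 2.57, 2.44 and 2.41 in Control, 0.97, 0.88 and 0.82 on Day 2, and -1.12, -0.63 and -1.66 on Day 4, where no array measured it. Its fitted change in Day 2:Control was -1.58 (SE 0.27, adjusted P = 0.0851). In Day 4:Control it was significantly lower (adjusted P = 0.0163), by at least 3.86-fold. A second vtg1 probe, A_15_P106680 (24828798 to 24828857), passed the test on both days, with 2.48, 2.39 and 2.52 in Control, 1.01, 0.89 and 0.83 on Day 2, and -1.14, -0.52 and -0.67 on Day 4. It fell by 1.55 on the log2 scale in Day 2:Control (SE 0.18, adjusted P = 0.0317) and was at least 3.83-fold lower in Day 4:Control (adjusted P = 0.00538). The vtg1 probes A_15_P116999 and A_15_P119630 were measured on all Control arrays but on 1 Day 2 array and no Day 4 array, and passed no test. The fifth, A_15_P110757 (24767962 to 24768021), was not well above background on any of the 9 arrays, so probes under the same symbol did not all give a signal.

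Of 3 EST probes described as similar to protein entry Q91190, 2 were measured on no array. The third, A_15_P114997, was measured on all Control arrays, at 0.97, 0.70 and 0.77. It read -1.34, -0.64 and -1.51 on Day 2, with 1 array well above background, and -2.80, -0.45 and -1.46 on Day 4, with none. All Day 2 and Day 4 arrays were below all Control arrays. The fit passed neither in Day 2:Control (adjusted P = 0.26) nor in Day 4:Control (adjusted P = 0.289), and the bounds were at least 1.96-fold and at least 1.22-fold lower.

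**Figure D2:**
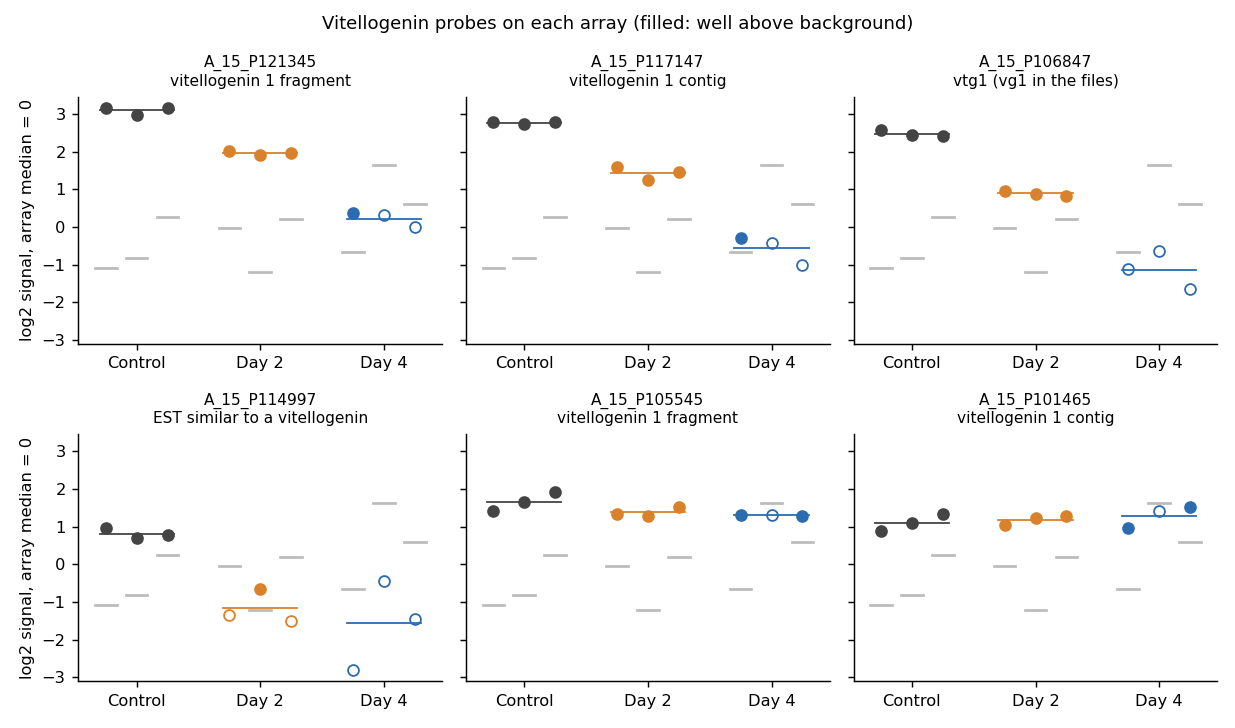
Log2 signal (array median = 0) of 6 vitellogenin probes on each array, with filled circles where the probe was well above background, open circles where it was not, coloured lines at the group means (n = 3 arrays) and grey ticks at the faintest measured signal of any probe on that array. A_15_P121345, A_15_P117147 and A_15_P106847 step down from Control to Day 2 to Day 4, A_15_P114997 lies below Control on both days, and A_15_P105545 and A_15_P101465 have fitted changes of -0.42 to 0.13 against Control.

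Over the whole family, 2 of the 56 probes were significantly lower in Day 2:Control (A_15_P121345 and A_15_P106680) and 0 significantly higher, where 0.186% of all probes were called lower. On Day 4 against Control, 6 were significantly lower and 0 higher, where 0.181% of all probes were called lower. In Day 4:Day 2, 1 was lower (A_15_P121345) and 0 higher, where 0.0279% of all probes were called lower. At an unadjusted limma P under 0.05, 16, 17 and 7 of the 56 were lower and 0, 1 and 0 higher in these comparisons. The share of all probes under that limit was not counted, so these numbers cannot be set against it. The other 2 probes that passed in Day 4:Control besides the 4 described were A_15_P120419 and A_15_P120585, both near 24628341 to 24628480 on chromosome 22. Over all 56 members the median fitted change against Control was -0.31 for Day 2 and -0.04 for Day 4, beside 0.12 and 0.29 over all probes. The 32 members measured on no array enter those medians with unmeasured readings, many of them at the floor of each array, which stood highest on the second Day 4 array. They give no measured size of a fold.

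Of the 12 probes measured on all Control arrays, 10 had every Day 2 array below every Control array, as did 15.0% of the 9764 probes of any gene that were measured on all Control arrays. In Day 4:Control, 11 of 12 did not overlap and were lower, against 5.98% of those probes, and in Day 4:Day 2, 8 of 12 were lower without overlap, against 10.3%. Day 2:Control and Day 4:Control share the Control arrays. The probes were chosen as measured in Control, which favours lower values afterwards, and the counts describe them without a test.

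The size of the Day 2 difference can be given only for probes that were measured in both groups. The 7 probes without overlap that were measured on all Control and all Day 2 arrays had fitted changes of -1.12 to -1.60 with a median of -1.53, or 2.18-fold to 3.02-fold lower. These probes were chosen as having every Day 2 array below every Control array, so a fall on each slide was fixed by the choice. Its size was limited by the choice as well. Small changes with overlapping arrays were left out. So were probes too dim to be measured on every Day 2 array, such as A_15_P114997 with a fitted change of -1.98. A similar size among the 7 is therefore partly built in, and they are not independent measurements. The difference lay between -1.13 and -1.66 on the first slide, between -1.06 and -1.57 on the second and between -1.18 and -1.69 on the third, the slide with the higher background. For Day 4 only the bounds can be given, and for the 10 probes that were lower without overlap on both days these ran from at least 1.22-fold to at least 4.70-fold lower than Control. By that choice all 10 had to read lower on Day 4 than in Control within the first and within the third slide, so the slides add nothing on direction. Of the 10, 2 were well above background on the first Day 4 array and 0 on the other Day 4 arrays, so within a slide too the size cannot be given for most of them.

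**Figure D3:**
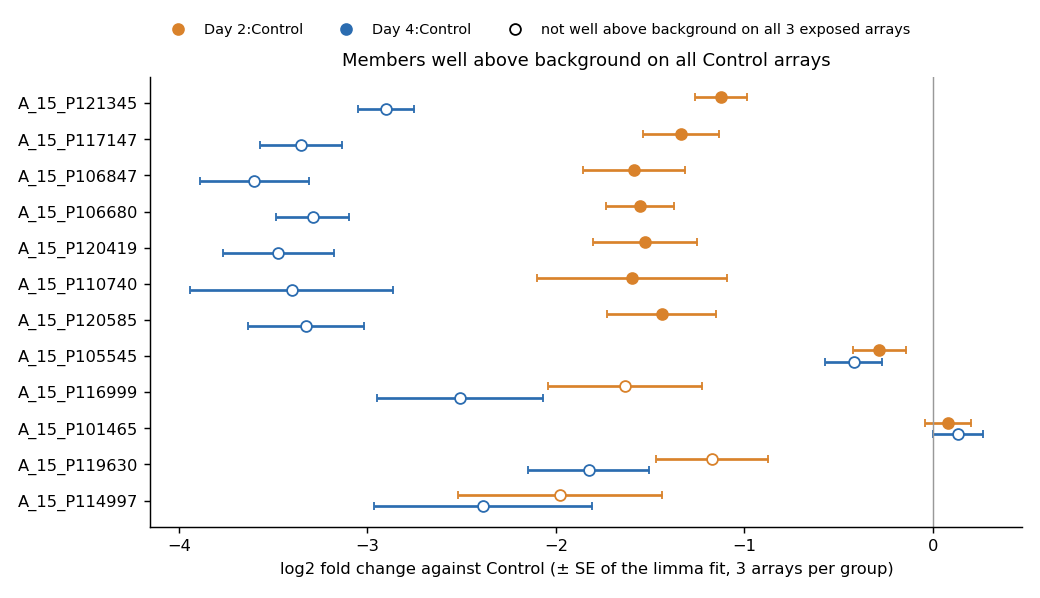
Fitted log2 fold changes against Control with their SE (n = 3 arrays per group) for the 12 probes measured on all Control arrays, in orange for Day 2 and blue for Day 4, with open circles where the probe was not measured on all 3 arrays of that day and the value is no measured size. The 7 filled orange points at -1.12 to -1.60 stand apart from A_15_P105545 and A_15_P101465, which lie between -0.42 and 0.13.

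Another 2 probes were measured and did not follow this pattern. They were picked out after their values were seen. A_15_P105545 (chromosome 22, 24805001 to 24805060), a vitellogenin 1 fragment, read 1.42, 1.65 and 1.91 in Control, 1.32, 1.29 and 1.52 on Day 2, and between 1.28 and 1.32 on the 3 Day 4 arrays. The Control and Day 2 arrays overlapped, and its Day 2 change was -0.28 (SE 0.14, adjusted P = 0.717). The Day 4 arrays were all below the Control arrays, without passing the test, at -0.42 (SE 0.15) with an adjusted P of 0.472. A_15_P101465 (24681356 to 24681415), a vitellogenin 1 contig, read 0.88, 1.09 and 1.33 in Control, 1.05, 1.22 and 1.28 on Day 2, and 0.96, 1.41 and 1.52 on Day 4. The 3 groups overlapped, and its change was 0.08 on Day 2 (SE 0.12, adjusted P = 0.952). On Day 4 it was 0.13 (SE 0.13) with an adjusted P of 0.564. Both were measured on 2 of 3 Day 4 arrays, the exception being the second.

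**Figure D4:**
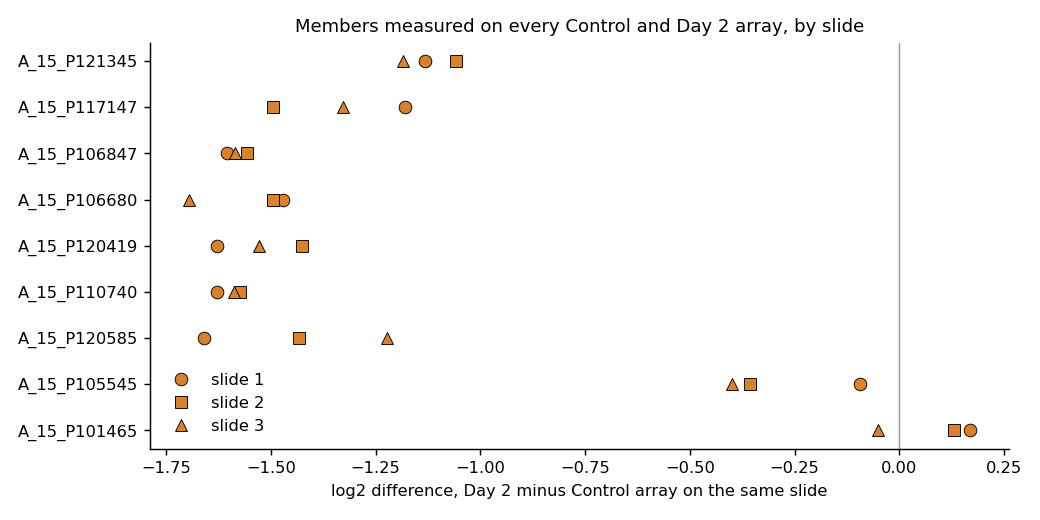
Log2 difference between the Day 2 and the Control array of the same slide for the 9 probes measured on all Control and Day 2 arrays, with circles, squares and triangles for slides 1, 2 and 3. The upper 7 probes lie between -1.06 and -1.69 on every slide, and A_15_P105545 and A_15_P101465 between -0.40 and 0.17.

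By position, the probes measured in Control formed separate places on chromosome 22. The 4 probes between 24628341 and 24629821 and the 4 between 24828057 and 24828857 all had every Day 2 array below every Control array, as did A_15_P121345 near 24923064. A_15_P105545 and A_15_P101465 lay between these places. At 24628420 to 24628480 a pair of probes covered the same 60 bases with coordinates that run in opposite directions. A_15_P120419 fell significantly in Day 4:Control, by at least 3.48-fold (adjusted P = 0.0191), and was measured on all Control and Day 2 arrays. A_15_P109792, an EST similar to a trout vitellogenin, was measured on 2 Control arrays and 1 Day 2 array and read from -0.43 to -0.78 in Control, -0.81 to -0.90 on Day 2 and -0.42 to -1.07 on Day 4.

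Probes named for vtg7 and vtg3 were well above background on no array. The vtg7 probe, A_15_P104898 (chromosome 22, 24926336 to 24926400), was not well above background on any of the 9 arrays. It read -3.11, -2.90 and -1.91 in Control, -2.16, -3.30 and -1.89 on Day 2, and -2.76, -0.43 and -1.49 on Day 4. Those readings followed the floor of each array, where the median of the 32 unmeasured members was -3.13, -2.89 and -1.92 in Control and -2.86, -0.56 and -1.53 on Day 4. The vtg3 probe A_15_P109536 and a second vitellogenin 3 probe on the same contig, A_15_P102894, both on chromosome 11 near 6300018, were likewise measured on no array. For these probes no level and no difference was detectable. Away from chromosomes 11 and 22, a probe similar to a chicken vitellogenin (A_15_P102315, chromosome 7) and a vitellogenin 1 fragment (A_15_P112898, chromosome 23) were each measured on 2 Control arrays, 1 Day 2 array and 1 Day 4 array, and passed no test.

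The arrays also covered genes that act around vitellogenin in other tissues. Of 31 genes listed for the pathway (estrogen and gonadotropin receptors, steroid-making enzymes, yolk receptors, lipid transfer and yolk-cutting proteases), 21 had probes, 34 in all, and 0 of those 34 were significantly higher or lower in any of the 3 comparisons by limma. Over all 21495 probes 158, 60 and 14 were called, so 0 of 34 is near that share and is no result about the pathway. At an unadjusted limma P under 0.05, 4, 7 and 4 of the 34 differed. The share of all probes under that limit was not counted. A limma fit with a variance trend called 4, 2 and 1, and its counts over all probes are given at the end. Of the 34, 15 were measured on all Control arrays, and their fitted changes ran from -0.62 to 0.83 in Day 2:Control and from -0.61 to 0.62 in Day 4:Control. The estrogen receptor gene esr1, which drives vitellogenin synthesis in the liver, read 1.11 ± 0.11 in Control, 1.47 ± 0.15 on Day 2 and 0.78 ± 0.75 on Day 4 (SD, n = 3 arrays), with 1 of the Day 4 arrays well above background. Its Day 2 arrays were all above its Control arrays, but the change of 0.36 did not pass (adjusted P = 0.952). The probes of cyp19a1b and hsd17b3 had every Day 2 and Day 4 array below every Control array. Their Day 2:Control changes were -0.27 for cyp19a1b and -0.56 and -0.62 for hsd17b3. In the other direction, ctsba probe A_15_P106744 and ctsla probe A_15_P103675 had every Day 2 and Day 4 array above every Control array, at 0.83 and 0.15 in Day 2:Control. None of these passed a test. The very low density lipoprotein receptor gene vldlr, whose family includes the oocyte receptor for vitellogenin, read 3.33 to 3.48 in Control, 3.13 to 3.31 on Day 2 and 3.21 to 3.56 on Day 4 with A_15_P100674. The ovarian enzymes and receptors cyp19a1a, star, cyp11a1, fshr and lhcgr, and the microsomal transfer gene mttp, were measured on no array.

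**Figure D5:**
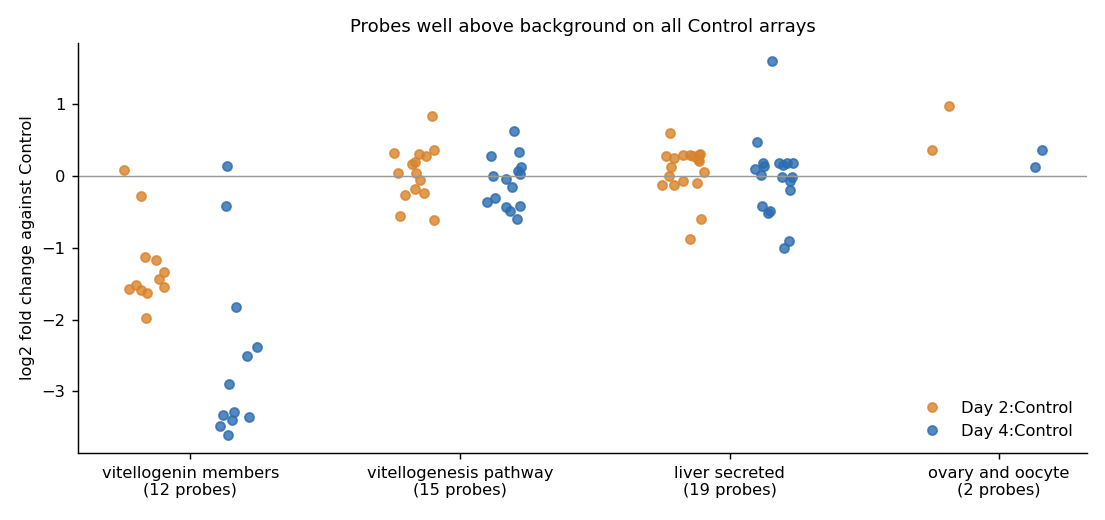
Fitted log2 fold changes in Day 2:Control (orange) and Day 4:Control (blue) of the probes measured on all Control arrays, for the 12 vitellogenin probes and for the listed pathway (15), liver (19) and ovary (2) probes, each point 1 probe with a small sideways jitter. The pathway points lie between -0.62 and 0.83, while 10 of the 12 vitellogenin points lie below -1 on both days.

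Genes that mark the tissues where vitellogenin is made or stored were read in the same pools. For the liver, 33 of 50 listed genes had 79 probes, of which 19, 20 and 17 were measured on all arrays of Control, Day 2 and Day 4. Their summed level, in multiples of the array median, was 4804 to 5114 in Control, 4914 to 5355 on Day 2 and 4545 to 6021 on Day 4, so the groups overlapped. That sum was carried by a few bright genes: rbp4 (mean log2 10.5 in Control), apoeb (up to 9.35) and cp (8.99). Of the 33 genes, 19 were measured on no array, so the overlap does not show that liver RNA was unchanged. In Day 4:Control 2 liver probes were significantly higher and 0 lower. They were transferrin, tfa, which rose by 1.59 (SE 0.14, adjusted P = 0.0236), and ambp. The called ambp probe, A_15_P115446, was well above background on no array, so its call rests on unmeasured readings. The ceruloplasmin probe (cp) had every Day 2 and Day 4 array below every Control array, at -0.89 and -0.91, and passed neither test (adjusted P = 0.092 and 0.175). The cyp7a1 probe had the same order, with fitted changes of -0.60 and -0.42. The ahsg1 probes measured on all Control arrays had every Day 4 array below every Control array. Their fitted changes included -0.49 and -0.52, and A_15_P115476 was at least 1.43-fold lower (adjusted P = 0.0719). None of these passed a test. In the other direction, apoc2 probe A_15_P116137 and several apoeb probes had every Day 2 and Day 4 array above every Control array. The liver markers fabp10a, ttr, serpina1 and fgg were measured on no array. For the ovary and oocyte, 19 of the 22 genes with probes were measured on no array, among them zar1, figla, ddx4, dazl and zp3, and 2 of 38 probes were measured on all Control arrays. The egg coat gene zp3b was significantly higher in Day 2:Control (0.97, adjusted P = 0.0475), and 0 ovary probes were lower in any comparison. The testis list had 14 probes with 0 called, and a summed level of 184 to 206 in Control, 192 to 204 on Day 2 and 248 to 298 on Day 4. Most of the higher Day 4 sum came from 1 probe, that of hsd11b2, with a mean of 6.77 in Control and 7.37 on Day 4. The dmrt1 probe A_15_P100946 also had every Day 4 array above every Control array. Its fitted change of 0.89 in Day 4:Control did not pass (adjusted P = 0.299, limma). Another dmrt1 probe, A_15_P101889, was measured on no array. Of the 12 testis genes with probes, 5 were measured on no array, so the sum is no measure of testis RNA. The globin and red cell list had 12 probes with 0 called and a summed level of 2102 to 2298 in Control, 2086 to 2371 on Day 2 and 1872 to 2963 on Day 4. At an unadjusted limma P under 0.05, 4 liver, 4 ovary, 0 testis and 2 red cell probes differed in Day 2:Control, and 14, 5, 2 and 2 in Day 4:Control. With a variance trend in the fit, the called probes numbered 3, 3, 0 and 1 in the first comparison and 9, 0, 2 and 2 in the second. Few of all probes were called in any comparison, so 0 called in lists this short says little about these tissues. Less RNA per cell and fewer cells of a type cannot be told apart in these pools.

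Some markers of other tissues differed between the same groups. Of 7 pituitary probes, 5 were significantly higher on Day 2 and 4 on Day 4, each against Control, beside 118 and 21 of all 21495 probes. Among these, cga (called on both days) and fshb (called on Day 2) were measured on no Control array. Each was measured on 1 array of Day 2 and 1 of Day 4, so their calls rest mostly on unmeasured readings. The called pomca probe was also measured on no Control array, but on all Day 2 and all Day 4 arrays. It was at least 4.17-fold higher on Day 2 and at least 6.11-fold higher on Day 4. The summed level of the 7 probes was 4.24 to 5.11 in Control, 37.3 to 43.5 on Day 2 and 40.0 to 52.0 on Day 4. The probe A_15_P109121 for lhb, the beta subunit of luteinizing hormone, read 0.53 to 0.67 in Control, 3.90 to 4.11 on Day 2 and 3.93 to 4.45 on Day 4. Of 15 slow and cardiac muscle probes, 3 were significantly lower on both days: tnnc1b, tpm3 and atp2a2a, which encode a troponin, a tropomyosin and a calcium pump, with Day 2:Control changes of -1.83, -1.73 and -2.34. A second tpm3 probe, A_15_P105082, read a change of 0.13 and passed no test, as did the 3 probes of the myoglobin gene mb. The summed level of the muscle list was 5124 to 5630 in Control, 4890 to 5640 on Day 2 and 5150 to 7612 on Day 4, so the groups overlapped. Most of that sum came from mb, with probe means of 11.1 and 10.2 in Control. The called probes of tnnc1b, tpm3 and atp2a2a had Control means of 4.52, 4.33 and 5.88. The overlap therefore does not show that muscle RNA was unchanged. The median change of the list was -0.05 on Day 2 and 0.08 on Day 4 against Control. Only 7 of its 15 probes were measured on all Control arrays. The inner ear list, with 14 probes, had 0 called in any comparison (2, 3 and 0 at an unadjusted limma P under 0.05). At the share called over all probes, 0 of 14 says little. Of its probes, 10 were measured on all arrays of each group. The part of these tissues in the vitellogenin values was not tested.

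The genes whose pattern over the 9 arrays was most like the mean of the 12 vitellogenin probes measured in Control, among 6227 probes with a gene symbol that were also measured there, were actn3b, actc1b, nme2b.2, atp2a1 and agpat4. Their Pearson r ran from 0.983 to 0.991 over 9 arrays that share 3 RNA pools. The mean they were matched to falls from Control to Day 4, so their own falls follow from how they were picked. The calls given for them describe these genes and are no separate evidence. Of these 5, 3 encode muscle proteins: actn3b an alpha-actinin, actc1b an actin and atp2a1 the calcium pump of fast muscle. actn3b read 3.49 ± 0.07 in Control, 2.80 ± 0.06 on Day 2 and 2.23 ± 0.10 on Day 4 (SD, n = 3 arrays), and was significantly lower in Day 4:Control by 1.31 (adjusted P = 0.0276). agpat4, an acyltransferase of phospholipid synthesis, was measured on 1 Day 2 array and no Day 4 array. It was significantly lower in Day 2:Control (adjusted P = 0.0169), by at least 5.57-fold.

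The calls were less stable than the values. Same-numbered Control and Day 2 arrays share a scan time. With the replicate number as a block in place of the slide 0 vitellogenin probes passed in Day 2:Control (adjusted P = 0.0589 for A_15_P106680 and 0.0624 for A_15_P121345) and 6 passed in Day 4:Control. Leaving out any 1 of the 6 Control and Day 2 arrays gave 0 calls in Day 2:Control, with changes of A_15_P121345 between -1.08 and -1.16. Leaving out Day 4 array 1, 2 or 3 gave 1, 8 and 0. In Day 4:Control, leaving out Control array 1 or 3 gave 0 calls, Day 2 array 3 gave 3, and Control array 2, Day 2 array 2, Day 4 array 1 or Day 4 array 3 gave 2. In Day 4:Day 2 leaving out any 1 of the 9 arrays ended the call of A_15_P121345, with an adjusted P of 0.0532 or more. With normexp background correction 0 vitellogenin probes passed in any comparison, and A_15_P121345 read -0.52 in Day 2:Control and -1.41 in Day 4:Control.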

How the data were processed

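RNA from pooled inner ears was labelled with Cy3 and hybridised to 1-colour Agilent zebrafish arrays by the authors, and the deposited scanner files, made with Agilent Feature Extraction 9.5.1, hold intensity values (background-corrected processed signal, mean signal and local background) and spot flags. The authors' own tables of comparisons, with fold changes, P-values and 6 columns of normalized group means, were not used.

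Following the per-chip 50th percentile scaling of the methods, log2 processed signal minus the median of each array was averaged over the 2 spots of a probe, without control spots and spots flagged as outliers. limma 3.58.1 (R 4.3.3) was fitted across all 21495 probes and 9 arrays with group and slide. Slides were told apart by scan time, which differs from the methods' layout of an array of each group on every plate. A probe was significantly regulated at an adjusted P (Benjamini-Hochberg over all probes) of at most 0.05 with a fold change of 1.4 or more. The scripts were tested on simulated data. The number of arrays limits precision.

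Deviations from the group means of same-numbered Control and Day 2 arrays correlated at 0.50, 0.27 and 0.54 over the 8024 probes measured on all arrays, and those shared a scan time. Same-numbered pairs with Day 4 correlated at -0.06 to 0.12 over those probes. Over all 21495 probes, the set that was fitted, the Control and Day 2 pairs correlated at -0.45, 0.39 and 0.75. The same-numbered pairs with Day 4 ran from -0.76 to 0.74 there. Control array 1 and Day 2 array 2, on different slides, correlated at 0.72, so over all probes the correlations did not follow the slides alone.

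Probes were named from the files, with 10329 matched to RefSeq symbols by accession or name. The symbol vg1 is also an older name of another gene, so vg1 was read as vitellogenin 1 from its description. By rule, probes named in full were the brightest in Control for each target. List genes were named where they passed the test, and the 5 symbols most alike by r. Other probes given array by array, such as A_15_P106680, A_15_P105545 and A_15_P101465, were picked outside these rules. So were list genes named without a call, such as esr1, vldlr, rbp4, apoeb, cp, hsd11b2 and mb. The family, the lists and the rules were chosen with earlier results of these data known. Alternatives covered scaling, background correction, model, filter, test and arrays.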

Additional observations from a re-analysis of the deposited data

How the results depend on the processing

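The fitted changes kept their direction more often than the calls kept their side of the threshold, and the cause was not tested. Numbers of vitellogenin probes significantly lower follow for Day 2:Control, then Day 4:Control, then Day 4:Day 2, beside 2, 6 and 1 above. They were 7, 7 and 6 with 75th percentile scaling, 0, 0 and 0 with normexp background correction (offset 50), 6, 9 and 6 without the slide, 0, 6 and 0 with the replicate block, 10, 10 and 9 with a filter on dim probes, 16, 16 and 8 with a variance trend and robust estimation, 0, 6 and 0 on the 6 arrays of each comparison, 2, 0 and 0 with the methods' paired t-test (paired by replicate number) after Benjamini-Hochberg, and 19, 9 and 6 without that adjustment. Without the arrays of slide 3, chosen after seeing the data and leaving 1 Day 4 array that is assumed to vary like the others, 0, 0 and 0 passed. Leaving out 1 array gave 0 to 8, 0 to 7 and 0 to 1, each highest without Day 4 array 2. The filter on dim probes kept probes measured on all 3 arrays of at least 1 group. Of the members it left only the 12 measured on all Control arrays. That choice favours lower values afterwards, so its 10, 10 and 9 are no added support for a fall.

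All probes significantly regulated numbered 158, 60 and 14. They were 629, 293 and 369 with 75th percentile scaling, 1, 0 and 0 with normexp, 506, 298 and 184 without the slide, 89, 57 and 13 with the replicate block, 902, 960 and 954 with the filter, 1014, 973 and 962 with the trend, 11, 25 and 0 on 6 arrays, 222, 0 and 0 with the adjusted paired test, 1148, 678 and 632 unadjusted, and 0, 0 and 0 without slide 3. Leaving out 1 array gave 4 to 579, 3 to 80 and 0 to 6. With 75th percentile scaling 157 were higher and 136 lower in Day 4:Control against 21 and 39, and 147 and 222 in Day 4:Day 2 against 8 and 6. Normexp moved the median change of all probes from 0.12, 0.29 and 0.24 to -0.02, -0.13 and -0.07.

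Counting a probe as measured where any spot was well above background gave 16, 10 and 1 probes on all 3 arrays of Control, Day 2 and Day 4, and the weaker flag of a positive and significant signal gave 25, 16 and 6. Directions turned for uncalled values in Day 4:Day 2: A_15_P114997 at 0.40 without Day 4 array 1 (-1.01 to 0.40 over the 9 omissions), A_15_P105545 at 0.0436 without slide 3, and A_15_P101465 at -0.0575 without Day 2 array 3 (-0.0575 to 0.12 over the omissions) and -0.0848 without slide 3. Within slides, A_15_P101465 was -0.05 on slide 3 in Day 2:Control and -0.09 on slide 1 in Day 4:Day 2, and A_15_P114997 was 0.55 on slide 3 in Day 4:Day 2.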
